A study of Mus musculus with 8 samples.

Results

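SOX transcription factors were followed across FACS-sorted cell types of the newborn mouse inner ear. The genes Sox2, Sox4, Sox5, Sox6, Sox7, Sox9, Sox10, Sox11, Sox17 and Sox18 were chosen by symbol, and all 10 were found among the 15275 genes of the expression table. Another 5 of 10 SOX genes that were looked for, namely Sox3, Sox8, Sox12, Sox13 and Sox21, were also in it and are used for comparison. The table holds mRNA-seq of 8 libraries, with 1 library for each of epithelium, mesenchyme, neurons and vascular endothelium from the cochlea and from the vestibular organs. Inner ears of untreated ICR mice, an outbred albino stock, were taken at postnatal day 0 according to the labels, while the paper's results give a later day; no genotype other than the stock is named. Dissociated cells were stained for CD326 (Epcam), CD49f (Itga6) and CD34 and sorted into the 4 fractions, and the epithelial fractions carry the title sensory. The sources used here do not say how many animals went into a library. A cell type was therefore compared through its cochlear and its vestibular library, which stand for 2 samples of it.

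SOX proteins bind DNA through an HMG box, a domain that bends the double helix, and are grouped by the sequence of that box. Within the SOXB1 group, Sox2 marks the prosensory patches from which hair cells and supporting cells of the inner ear arise. The SOXE genes Sox9 and Sox10 act in the otic placode, in cartilage (Sox9) and in glia and pigment cells derived from the neural crest (Sox10). The SOXD genes Sox5 and Sox6 cooperate with Sox9 in cartilage. The SOXC genes Sox4 and Sox11 are active in many immature cells, and the SOXF genes Sox7, Sox17 and Sox18 act in the endothelium of blood and lymph vessels.

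Every value below is the signal deposited by the authors. It has no unit, and it was brought to 1 common distribution, so that all 8 libraries share the same sorted values, with a median of 374.4, a highest value of 203006.1 and a lowest value of 20, which is held by 2058 genes in each library. A gene at 20 may be absent or below that limit. The depth of each library is unknown, so no counting error can be given.

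The fractions were checked against marker lists first. All 10 epithelial genes were higher in epithelium than in the other fractions in the limma test described below, where 7.27% of all genes were, such as Epcam with a signal of 14252.5 in cochlear and 21678 in vestibular epithelium against at most 987 elsewhere. Of 20 endothelial genes 15 were higher in vascular endothelium, where 5.96% of all genes were. Of 11 mesenchyme genes 4 were higher in mesenchyme, where 1.82% of all genes were, among them Tbx18 and Pou3f4 of otic mesenchyme. Others of that list had higher values elsewhere, such as the collagen gene Col3a1 with 147259.9 in cochlear neurons against 74990.4 in cochlear mesenchyme, and Lum, a proteoglycan of connective tissue, with 26234.4 in cochlear epithelium against 3182 in cochlear mesenchyme. The libraries labelled neurons went against their label in part. Of 15 neuronal genes 1 was higher there and of 14 genes of Schwann cells and glia 11 were, where 2.3% of all genes were, with a median log2 difference of 5.38 for the glial list and 1.02 for the neuronal list. Within each organ, 10 of the 15 neuronal genes were highest in the neuron library of the cochlea and 3 in that of the vestibular organs. Gap43 had 1271 in cochlear and 1272 in vestibular neurons, whereas Tubb3, a tubulin of neurons, had 469 and 36.9. In vestibular neurons 4 of the 15 neuronal genes were at the lowest value, among them Elavl4, Prph and Pou4f1. Of 8 genes of pericytes and smooth muscle 4 were also higher in neurons, with a summed signal of 14605.7 in cochlear and 161871 in vestibular neurons, of which Rgs5 made up 147259.9. The glial genes summed to 191588 in cochlear and 243761 in vestibular neurons. The mesenchyme genes summed to 205938 and 135224, of which Col3a1 made up 147259.9 and 64473.6. None of the 11 mesenchyme genes was higher in neurons by the test, with a median log2 difference of -0.16, and Tbx18 had 452 and 1758 there. That test sets neurons against a mean that includes mesenchyme itself, so it cannot show whether the list is raised above the other fractions. The summed mesenchyme genes had 46200 in cochlear and 27592 in vestibular epithelium, 4065 and 29638.5 in vascular endothelium, and 386658 and 408502 in mesenchyme. Markers of glia and some of pericytes were thus high in this fraction. The summed mesenchyme signal lay between that of mesenchyme and those of epithelium and vascular endothelium. It is called neurons below as it is labelled.

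The vestibular neurons and vestibular vascular endothelium stood apart as well. Across genes, the Spearman correlation of these libraries was 0.888, above the 0.877 between both libraries of vascular endothelium, whereas the cochlear and vestibular libraries of the other cell types correlated at 0.922 to 0.965. The summed signal of the 10 epithelial genes was 6312 in vestibular neurons against 925 in cochlear neurons, and 6288 in vestibular against 689.5 in cochlear vascular endothelium. The summed signal of the 20 endothelial genes was 27233 in vestibular and 14298 in cochlear neurons. Many of the calls on single genes are given below with their values without these libraries where those change the call. Marker counts changed as well when 1 of these libraries was left out. Its cell type then kept 1 library and the calls over all genes also changed, so this is not read as a result about the markers.

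**Figure D1:**
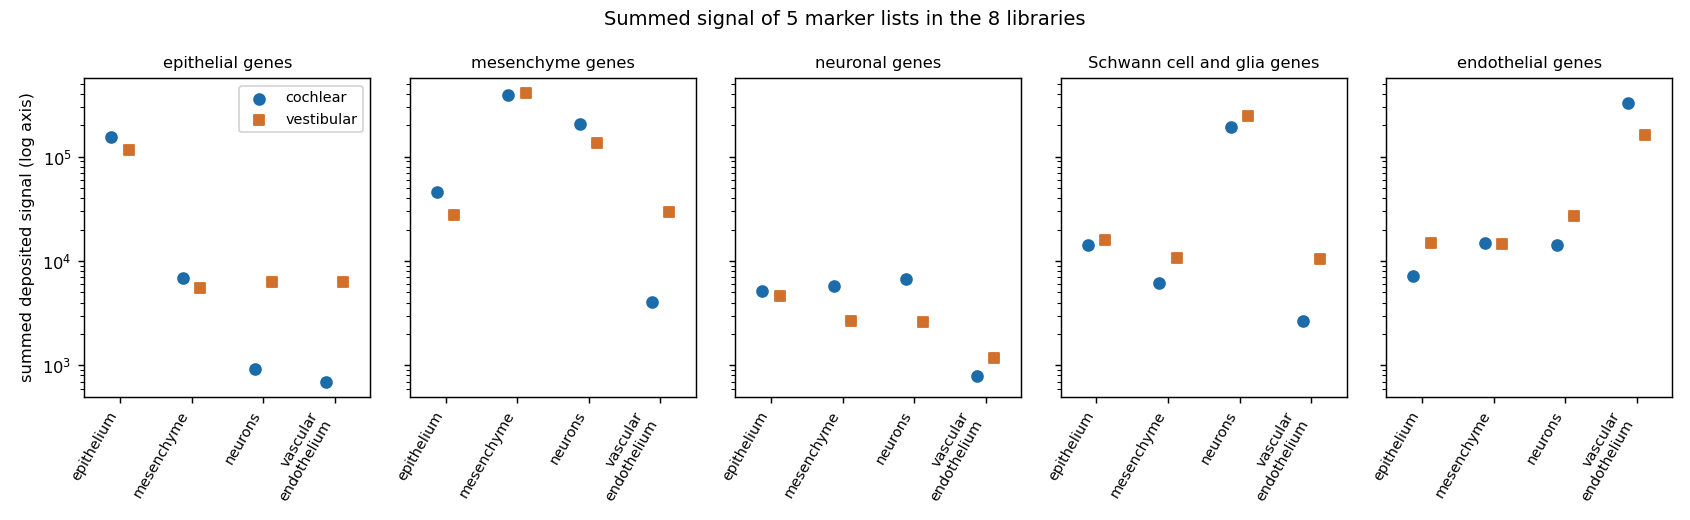
Summed deposited signal (log axis) of 5 marker lists in the 4 cell types, with 1 circle for each cochlear library and 1 square for each vestibular library. Schwann cell and glial genes sum to 191588 and 243761 in the neuron libraries, above the neuronal genes at 6746 and 2624.

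The first question was which SOX gene leads in each fraction. By deposited signal Sox10 led in epithelium and neurons of both organs and Sox4 led in mesenchyme of both organs, while in vascular endothelium Sox7 led in the cochlea and Sox17 in the vestibular organs. In cochlear epithelium the lead was small, since Sox10 had 7036, Sox9 6947 and Sox4 6559.8. In vestibular epithelium Sox10 had 7999 and Sox4 7488. With 1 library in each place, the order within a library has no replicate check and is a description.

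Whether the signal had been divided by transcript length is not stated. Across 15030 genes the signal and the annotated exon length had Spearman correlations of 0.236 to 0.366, so levels of different genes were also set side by side per kb of exon. On that scale Sox10 led in epithelium with 2306 per kb in the cochlea and 2622 per kb in the vestibular organs, ahead of Sox9 at 1680 per kb and Sox4 at 1562 per kb. It led in neurons with 6140 and 3287 per kb, 2.97 and 2.21 times the level of Sox2, the next member. Sox4 led among the members in mesenchyme with 1498 and 884 per kb, followed by Sox9 with 775 and 623 per kb. The order within vascular endothelium turned on the scale, since per kb Sox18 led in the cochlea with 2474 and Sox7 in the vestibular organs with 1234, just ahead of Sox18 at 1195. Among all 15 SOX genes the same members led, except in vestibular mesenchyme, where Sox8 had 1092 per kb.

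**Figure D2:**
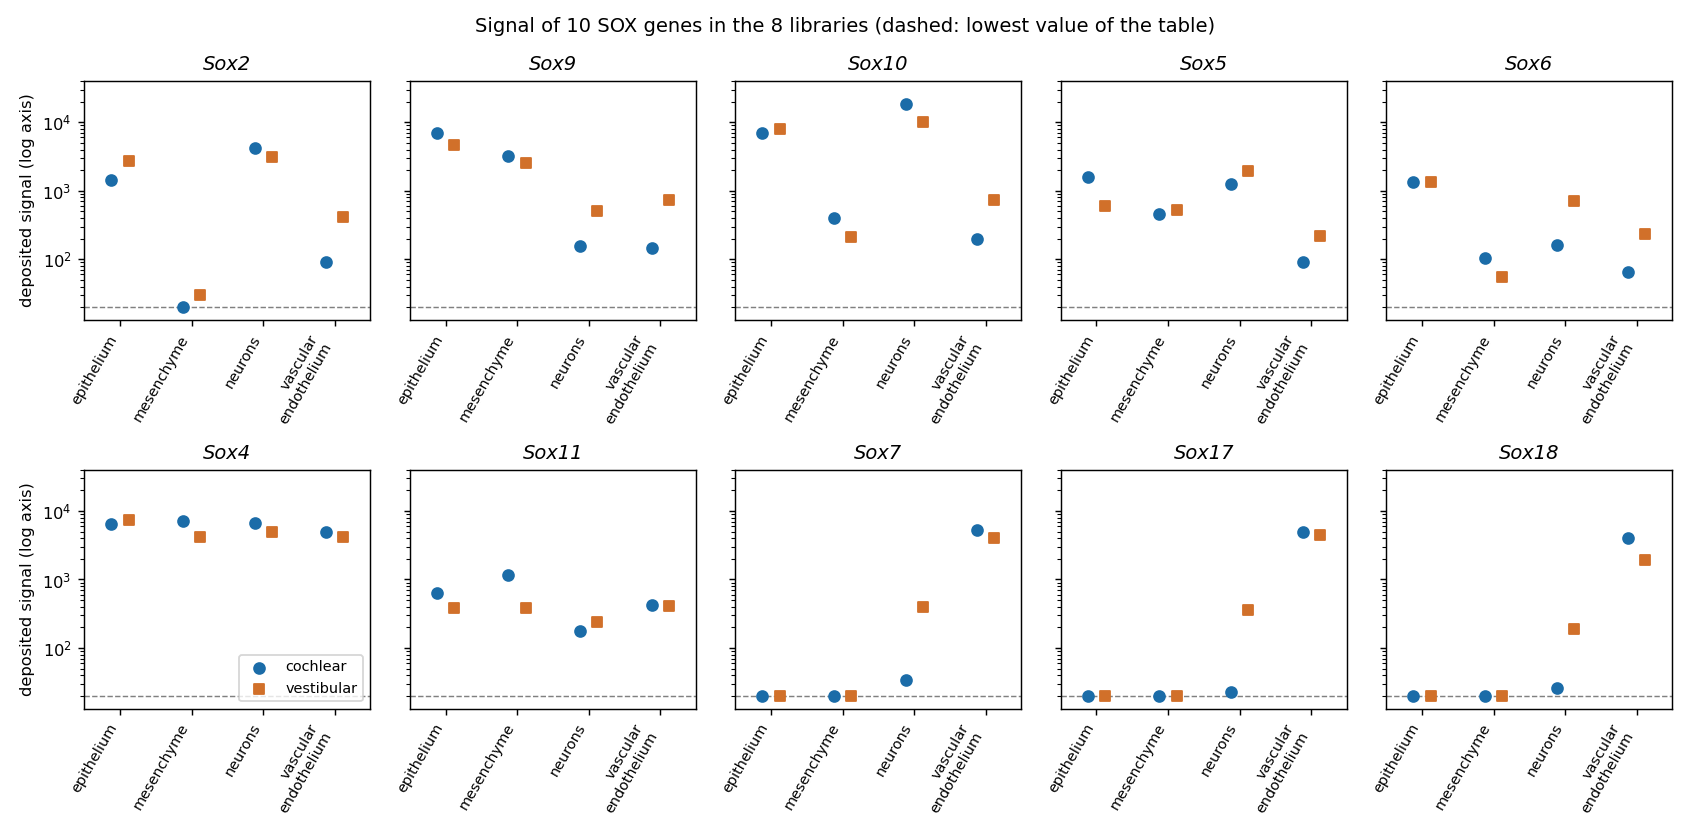
Deposited signal (log axis) of the 10 SOX genes by cell type, with 1 circle for each cochlear and 1 square for each vestibular library and a dashed line at the lowest value of 20. Sox4 lies between 4150 and 7488 in every library, whereas Sox7, Sox17 and Sox18 are at 20 in both epithelial and both mesenchymal libraries.

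Differences between cell types were tested with limma on log2(signal + 1) over all 15275 genes, in a model of cell type and organ, with p-values adjusted by the Benjamini-Hochberg method and a threshold of 0.05. The main contrasts set 1 cell type against the mean of the other 3. The test has 3 residual degrees of freedom. Its p-values rest on the spread between the cochlear and vestibular libraries, pooled over the 4 cell types. The shift common to the organ is removed first, and the spread that remains may be technical or biological. In sorted bulk samples, fewer cells that express a gene and less RNA per cell cannot be told apart.

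Sox2 was the member with the most calls, being higher in epithelium and in neurons and lower in mesenchyme. Its signal was 1439 in cochlear and 2679.8 in vestibular epithelium, 4249 and 3065 in neurons, 91.0 and 412 in vascular endothelium, and 20 and 29.8 in mesenchyme. Both neuron libraries lay above both epithelial libraries, these above both endothelial ones, and these above both mesenchymal ones. Against the mean of the other 3 cell types the log2 difference was 4.08 ± 0.54 (SE) in neurons with a limma adjusted p of 0.0430. It was 2.91 ± 0.54 in epithelium with 0.0356 and -5.45 ± 0.54 in mesenchyme with 0.0274. Each cell type had 2 libraries, and the SE comes from the spread pooled over all 8, here and below. In mesenchyme, where the cochlear library was at the lowest value, the size of the difference depends on that limit. Neurons and epithelium did not differ in the test, with a log2 difference of 0.88 ± 0.66 and a limma adjusted p of 0.476, while epithelium and vascular endothelium did, at 3.33 ± 0.66 with 0.0360.

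Leaving out 1 library removed most of these Sox2 calls. In epithelium and in mesenchyme they held in the fits without the cochlear or the vestibular endothelial library, and were lost when any of the other 6 libraries was left out, with limma adjusted p of 0.0590 to 0.263 in epithelium and 0.0737 to 0.236 in mesenchyme. In neurons the call held only without vestibular vascular endothelium, at a log2 difference of 4.39, and was lost without each of the other 7, with limma adjusted p of 0.0563 to 0.281. Epithelium against vascular endothelium likewise held only without vestibular vascular endothelium, at 4.25 with 0.0421, and had 0.0587 without vestibular neurons. The direction of the comparisons with the other 3 cell types was the same in all of these fits, with log2 differences of 2.60 to 3.22 in epithelium, 3.24 to 4.92 in neurons and -5.76 to -5.15 in mesenchyme.

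Sox2 (ENSMUSG00000074637) lies on the plus strand at chr3:34650405-34652461 of GRCm38 in GENCODE vM21 and has 2057 bases of exon. RefSeq places its start further upstream, and the 250 bases before that start, at chr3:34649745-34649994 of GRCm38.p6, are shown because Sox2 is the member with the most calls. Capitals mark the match to CCGGAA, the core of an ETS motif.
Sox2: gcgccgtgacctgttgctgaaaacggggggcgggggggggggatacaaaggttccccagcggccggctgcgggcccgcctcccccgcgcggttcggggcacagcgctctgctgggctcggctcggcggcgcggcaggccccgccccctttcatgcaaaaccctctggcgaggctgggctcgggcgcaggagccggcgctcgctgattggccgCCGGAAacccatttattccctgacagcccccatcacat
The window has 72.0% G and C. It was searched on both strands for CCGGAA, for the SOX core ACAAT, for the GATA motif AGATAA and for TATAAA, none of which overlaps another in it, and only the first was found. Of 32851 RefSeq promoter windows of this length, 3952 hold CCGGAA, while 27.7% hold ACAAT, 9.99% AGATAA and 12.4% TATAAA. A match is a description of letters only.

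Like Sox2, Sox10 was highest in neurons and next in epithelium, and it was the highest member in neurons. None of its comparisons with the mean of the other 3 cell types passed the test. The signal was 18735 in cochlear and 10027.5 in vestibular neurons, 7036 and 7999 in epithelium, 199.9 and 738 in vascular endothelium, and 396.5 and 211 in mesenchyme. Both neuron libraries lay above both epithelial libraries and all 4 lay above the other 4, which overlapped. The log2 difference was 3.86 ± 0.62 in neurons with a limma adjusted p of 0.0553 and 2.70 ± 0.62 in epithelium with 0.0575. It was -3.56 ± 0.62 in mesenchyme with 0.0592 and -3.01 ± 0.62 in vascular endothelium with 0.0513. When genes with a highest value under 100 were left out of the fit, all 4 passed, with limma adjusted p of 0.0117 in neurons, 0.0151 in epithelium, 0.0144 in mesenchyme and 0.0123 in vascular endothelium. All 4 also passed without vestibular vascular endothelium, at 4.26 in neurons with 0.0351, 3.11 in epithelium with 0.0286, -3.15 in mesenchyme with 0.0460 and -4.22 in vascular endothelium with 0.0380. Without vestibular neurons none passed, with limma adjusted p of 0.0979 to 0.227.

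Between pairs of cell types Sox10 did pass. It was higher in epithelium than in mesenchyme by 4.69 ± 0.76 on the log2 scale with a limma adjusted p of 0.0384, and higher in epithelium than in vascular endothelium by 4.28 ± 0.76 with 0.0284. It was higher in neurons than in vascular endothelium by 5.15 ± 0.76 with 0.0384, and mesenchyme fell below neurons at -5.56 ± 0.76 with 0.0446. The last of these passed in none of the 8 fits that left out 1 library, where the limma adjusted p was 0.0573 to 0.257, nor without the variance trend, where it was 0.0535. Against vascular endothelium, the other fractions kept the call only without vestibular vascular endothelium, where the limma adjusted p was 0.0238 for epithelium and 0.0265 for neurons. Epithelium against mesenchyme kept it only without 1 of the endothelial libraries, with a limma adjusted p of 0.0352 or 0.0358.

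Sox9 had its own order, with epithelium first and mesenchyme next. Its signal was 6947 in cochlear and 4665 in vestibular epithelium, 3205 and 2576 in mesenchyme, 158 and 503 in neurons, and 145 and 743 in vascular endothelium. The epithelial libraries lay above the mesenchymal ones and these above the other 4, among which neurons and vascular endothelium overlapped. The log2 difference of epithelium from the other 3 cell types was 3.14 ± 0.68 with a limma adjusted p of 0.0503, just outside the threshold, and 0.0119 when genes with a highest value under 100 were left out. Sox9 was higher in epithelium than in neurons by 4.33 ± 0.84 with 0.0461 and than in vascular endothelium by 4.11 ± 0.84 with 0.0386. Neither call held in any of the 8 fits that left out 1 library, with limma adjusted p of 0.0641 to 0.241 and 0.0609 to 0.201, and the first was also lost without the variance trend, at 0.0519. Epithelium and mesenchyme did not differ in the test at 0.99 ± 0.84 with 0.640.

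Sox6 was highest in epithelium and Sox5 lowest in vascular endothelium, and neither passed the test. Sox6 had 1350.3 in cochlear and 1359.5 in vestibular epithelium, 163 and 708 in neurons, 104 and 54.3 in mesenchyme, and 64.3 and 231 in vascular endothelium. Both epithelial libraries lay above the other 6. Among those, both neuron libraries lay above both mesenchymal ones and vascular endothelium overlapped with each, and the log2 difference of 3.20 ± 0.72 had a limma adjusted p of 0.0532, which was 0.0138 without genes of a highest value under 100. Sox5 had 1583 and 596 in epithelium, 1238 and 1940.4 in neurons, 452 and 518 in mesenchyme, and 91.8 and 217.5 in vascular endothelium. Both endothelial libraries lay below the other 6, with a log2 difference of -2.66 ± 0.55 and a limma adjusted p of 0.0512, which was 0.0139 without genes of a highest value under 100. Epithelium and neurons overlapped for Sox5.

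Sox4 was high everywhere, while the share of genes lower than Sox11 ran from 35.8% in cochlear neurons to 77.5% in cochlear mesenchyme. The signal of Sox4 was 6559.8 in cochlear and 7488 in vestibular epithelium, 7182 and 4237.5 in mesenchyme, 6572 and 4885 in neurons, and 4946 and 4150.3 in vascular endothelium. Between 96.0% and 98.5% of all genes were lower than Sox4 in each library, and its cell types overlapped except that both epithelial libraries lay above both endothelial ones. Its log2 differences from the other 3 cell types were -0.41 to 0.43, each with an SE of 0.25, and the lowest limma adjusted p was 0.330. Sox11 had 631 and 382 in epithelium, 1158 and 380 in mesenchyme, 175 and 239 in neurons, and 418 and 411.5 in vascular endothelium. The neuron libraries lay below the other 6, at a log2 difference of -1.32 ± 0.46 with a limma adjusted p of 0.209. A p that misses the threshold does not show equal levels, but the highest Sox4 library was 1.80 times the lowest.

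Sox4 (ENSMUSG00000076431) lies on the minus strand of chr13:28948919-28953713 of GRCm38 and has 4795 bases of exon. The 250 bases before its RefSeq start, at chr13:28953700-28953949 of GRCm38.p6, are shown beside those of Sox2 because Sox4 is the member that varied least.
Sox4: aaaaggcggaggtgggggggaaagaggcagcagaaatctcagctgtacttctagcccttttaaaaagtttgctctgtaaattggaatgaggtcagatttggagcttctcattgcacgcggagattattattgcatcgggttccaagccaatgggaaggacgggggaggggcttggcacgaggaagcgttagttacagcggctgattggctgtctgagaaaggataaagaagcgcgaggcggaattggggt
This window has 50.8% G and C, and none of the 4 motifs was found on either strand, which says only that those letters are not in it. Promoter windows of Sox2, Sox4, Sox5, Sox6 and Sox11 were matched in the RefSeq table, and none was matched for Sox7, Sox9, Sox10, Sox17 and Sox18.

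The SOXF genes were the members of the largest differences, being higher in vascular endothelium. Sox7 had 5194 in cochlear and 4073 in vestibular vascular endothelium, Sox17 had 4957.5 and 4502, and Sox18 had 4008.5 and 1936. All 3 were at 20 in both epithelial and both mesenchymal libraries. In neurons Sox7 had 34.6 in the cochlea and 403 in the vestibular organs, Sox17 22.5 and 363, and Sox18 26.0 and 192. The endothelial libraries lay above the other 6 for each of the 3 genes.

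Against the mean of the other 3 cell types the log2 difference in vascular endothelium was 7.10 ± 0.96 for Sox17 with a limma adjusted p of 0.0251. It was 6.94 ± 0.88 for Sox7 with 0.0224 and 6.46 ± 0.81 for Sox18 with 0.0217. Since 4 of the libraries compared were at the lowest value, these sizes depend on that limit. The calls held without either neuron library, at 6.33 and 7.54 for Sox7, 6.43 and 7.77 for Sox17, and 5.93 and 6.99 for Sox18 without the cochlear and without the vestibular neurons. They were lost without any of the other 6 libraries, with limma adjusted p of 0.0728 to 0.141 for Sox7, 0.0792 to 0.150 for Sox17 and 0.0603 to 0.133 for Sox18. Without vestibular vascular endothelium the differences were 7.70, 7.83 and 7.46 in that order.

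Vascular endothelium and neurons did not differ in the test for the SOXF genes. The log2 difference was 5.26 ± 1.08 for Sox7 with a limma adjusted p of 0.0700, 5.67 ± 1.18 for Sox17 with 0.0721 and 5.27 ± 0.99 for Sox18 with 0.0596, and all 3 passed without genes of a highest value under 100, at 0.0165, 0.0167 and 0.0133. Without vestibular neurons Sox7 passed at 0.0496 and Sox17 at 0.0479, while Sox18 had 0.0537. Endothelial marker genes and the SOXF genes both had some signal in vestibular neurons. Sox7, Sox17 and Sox18 stood at 9.89%, 8.07% and 9.94% of their signal in vestibular vascular endothelium, and by the same measure the median of the 20 endothelial marker genes was 13.4%, with 3.91% the lowest and 379% the highest. In the cochlea the 3 SOXF genes stood at 0.666%, 0.454% and 0.649%, and the marker genes ran from 0.387% to 644% around a median of 0.796%. Cdh5, which encodes VE-cadherin, was at 2598 in vestibular and 261 in cochlear neurons. The part of endothelial cells in the SOXF values of neurons was not tested.

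**Figure D3:**
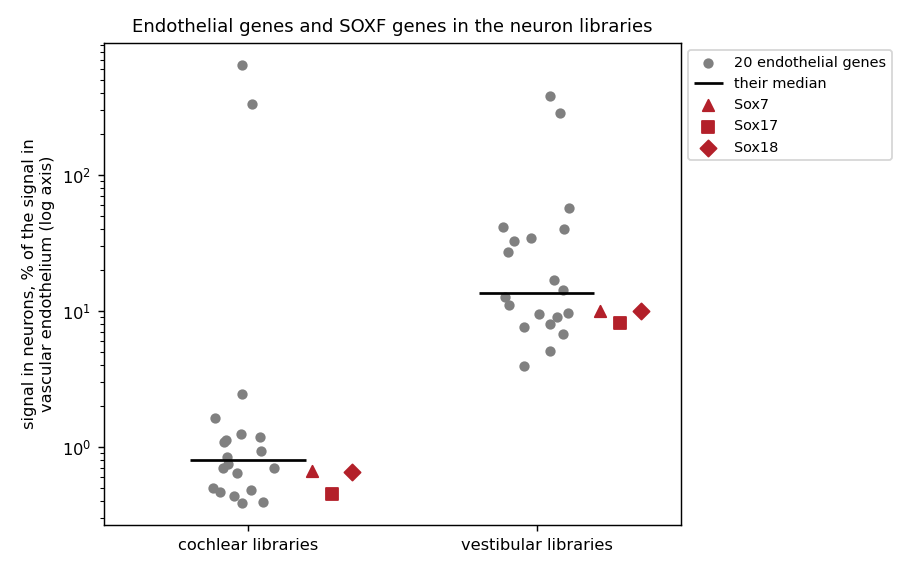
Signal in neurons as a percent of the signal in vascular endothelium of the same organ (log axis), for 20 endothelial marker genes (grey points, black line at their median) and for Sox7, Sox17 and Sox18 (red). Both kinds of gene are higher in the vestibular pair, where the SOXF genes are at 8.07% to 9.94%, than in the cochlear pair, where they are at 0.454% to 0.666%.

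Counted over the members, vascular endothelium had 3 of 10 higher and none lower by the limma test, where 5.96% of all genes were higher and 5.14% lower. Epithelium had 1 of 10 higher and none lower, where 7.27% of all genes were higher and 6.68% lower. Neurons had 1 of 10 higher and none lower, where 2.3% were higher and 1.07% lower. Mesenchyme had none higher and 1 lower, where 1.82% of all genes were higher and 1.51% lower. The median log2 difference over the 10 members was -0.91 in vascular endothelium, 0.73 in epithelium, -0.03 in neurons and -2.64 in mesenchyme, beside medians of -0.07 to -0.02 over all genes. These counts rest on all 8 libraries. Some of the calls were lost without vestibular neurons or without vestibular vascular endothelium, but the calls over all genes changed in those fits too. Each such fit leaves a cell type with 1 library, so the change is not read as a result about the members. By a simple count, both libraries lay above the other 6 for 3 members in vascular endothelium, where this holds for 10.2% of all genes. This was so for 2 in epithelium (Sox6 and Sox9) beside 12.4%, for 2 in neurons (Sox2 and Sox10) beside 6.4%, and for none in mesenchyme beside 7.63%.

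Between pairs of cell types, 2 members were higher in epithelium than in mesenchyme by the limma test, beside 4.25% of all genes, and 1 was higher in epithelium than in neurons, beside 5.23%. Epithelium and vascular endothelium had the most calls, with 3 members (Sox2, Sox9 and Sox10) higher in epithelium, beside 8.69%, and the 3 SOXF genes lower, beside 8.46%. In mesenchyme 2 members (Sox2 and Sox10) were lower than in neurons, beside 1.51%, and the 3 SOXF genes were lower than in vascular endothelium, beside 4.31%. In neurons Sox2 and Sox10 were higher than in vascular endothelium, beside 2.67%. Each of these calls was lost in most of the 8 fits that left out 1 library. Those of Sox9, and those of Sox2 and Sox10 in mesenchyme against neurons, were lost in all of them. The log2 difference of Sox2 in these fits was -7.99 to -6.31 for mesenchyme against neurons and 3.29 to 5.13 for neurons against vascular endothelium. The calls over all genes changed in the same fits, so this is not read as a result about the members. By overlap alone, the libraries of epithelium and mesenchyme were apart for 5 of 10 members and for 56.9% of all genes, and those of epithelium and neurons for 8 members and 54.9%. Epithelium and vascular endothelium were apart for 9 members and 54.5% of all genes, mesenchyme and neurons for 9 and 46.2%, mesenchyme and vascular endothelium for 6 and 47.5%, and neurons and vascular endothelium for 7 and 35.7%. The counts of epithelium and of mesenchyme beside neurons include the 3 SOXF genes. These were at the lowest value of 20 in epithelium and mesenchyme and only at 22.5 to 34.6 in cochlear neurons.

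**Figure D4:**
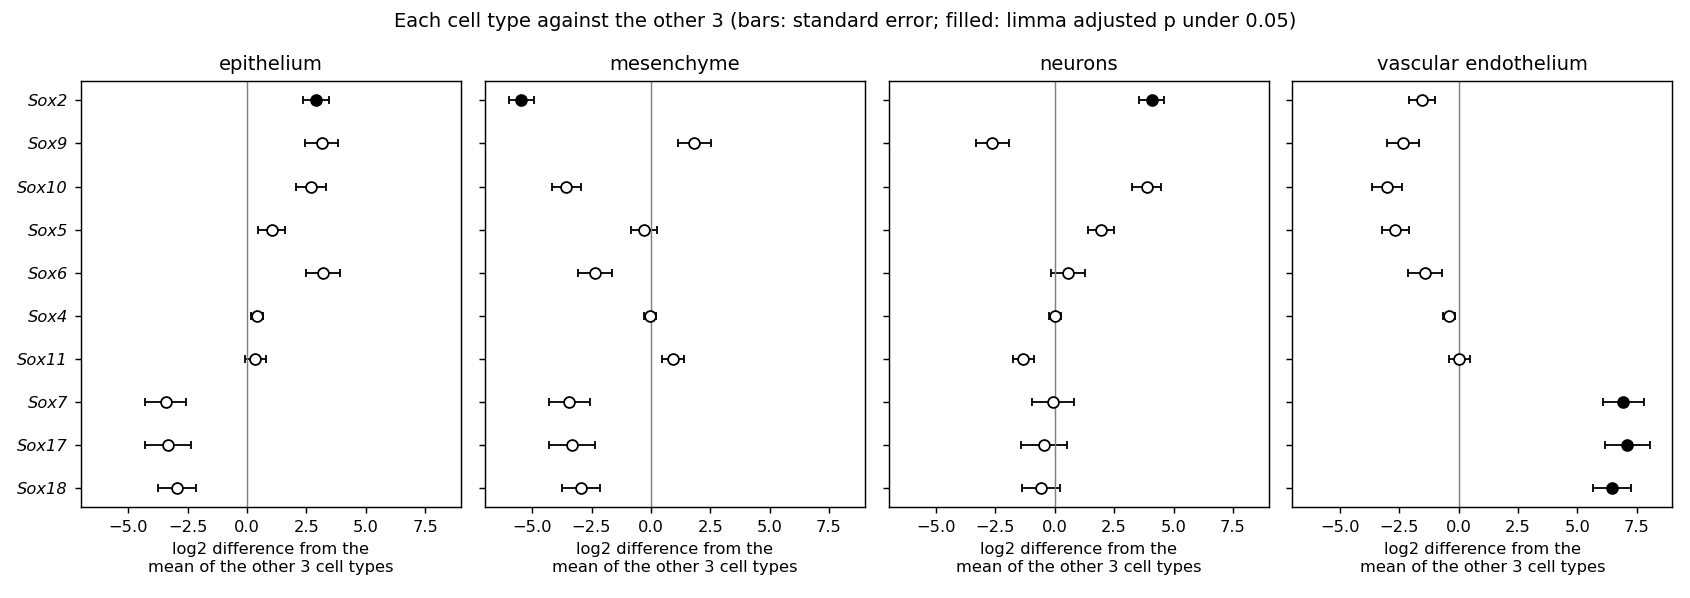
Log2 difference of each cell type from the mean of the other 3 for the 10 SOX genes, with the standard error as a bar and filled points where the limma adjusted p is under 0.05. The filled points are Sox2 in epithelium, mesenchyme and neurons and Sox7, Sox17 and Sox18 in vascular endothelium, the last 3 at 6.46 to 7.10.

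No SOX gene differed between the organs in the limma test, and neither did any of the 15275 genes (0.0% called), of which 964 had an unadjusted p under 0.05. The organ term of the members ran from -0.48 for Sox11 to 0.95 for Sox17 on the log2 scale, vestibular minus cochlear, with a lowest limma adjusted p of 0.628. Within vascular endothelium, Sox2, Sox6, Sox9 and Sox10 were all higher in the vestibular library, by 4.53, 3.59, 5.12 and 3.69 times. In that library they stood at 15.4%, 17.0%, 15.9% and 9.22% of their signal in vestibular epithelium, beside a median of 5.19% for the 10 epithelial markers. In the cochlea the corresponding values were 6.33%, 4.76%, 2.09% and 2.84%, beside 1.03%. Epithelium was the highest fraction for Sox6 and Sox9 in both organs. For Sox2 and Sox10 that was neurons, so the epithelial markers are not a like measure for these genes. Vestibular exceeded cochlear vascular endothelium in all 11 mesenchyme genes and in 12 of 14 glial genes, beside 6787 of all 15275 genes. The part of other cell types in these values was not tested.

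Within epithelium the organs were close for Sox6, with 1350.3 and 1359.5, and for Sox4 and Sox10, which were 1.14 times higher in the vestibular library. Sox5 was 2.65 times and Sox9 1.49 times higher in the cochlear library, and Sox2 was 1.86 times higher in the vestibular one. In mesenchyme Sox11 was 3.05 times, Sox10 1.88 times and Sox4 1.70 times higher in the cochlear library. Each of these ratios compares 1 library with 1 library and has no replicate check.

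Taken per kb of exon and summed by subgroup over the 15 SOX genes, the fractions had different make-ups. SOXE genes held 54.6% of the summed signal in cochlear and 49.9% in vestibular epithelium, and 57.0% and 48.5% in neurons. SOXB1 genes added 9.62% and 16.1% in epithelium and 19.6% and 20.6% in neurons. SOXF genes held 69.1% and 61.2% in vascular endothelium and at most 4.32% in any other library, that one being vestibular neurons. Mesenchyme was the fraction where the organs differed most, with SOXC genes at 59.4% in the cochlea and 38.1% in the vestibular organs, and SOXE genes at 33.1% and 56.4%. The shares depend on the scale. By deposited signal SOXF genes held 57.6% and 53.1% in vascular endothelium. SOXB1 genes held 4.91% and 8.84% in epithelium and 12.2% and 11.9% in neurons. In vestibular mesenchyme SOXE genes held 47.3% and SOXC genes 44.6% by signal. Sox8, a SOXE gene also known from glia, had a signal of 758 in cochlear and 3405 in vestibular mesenchyme.

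**Figure D5:**
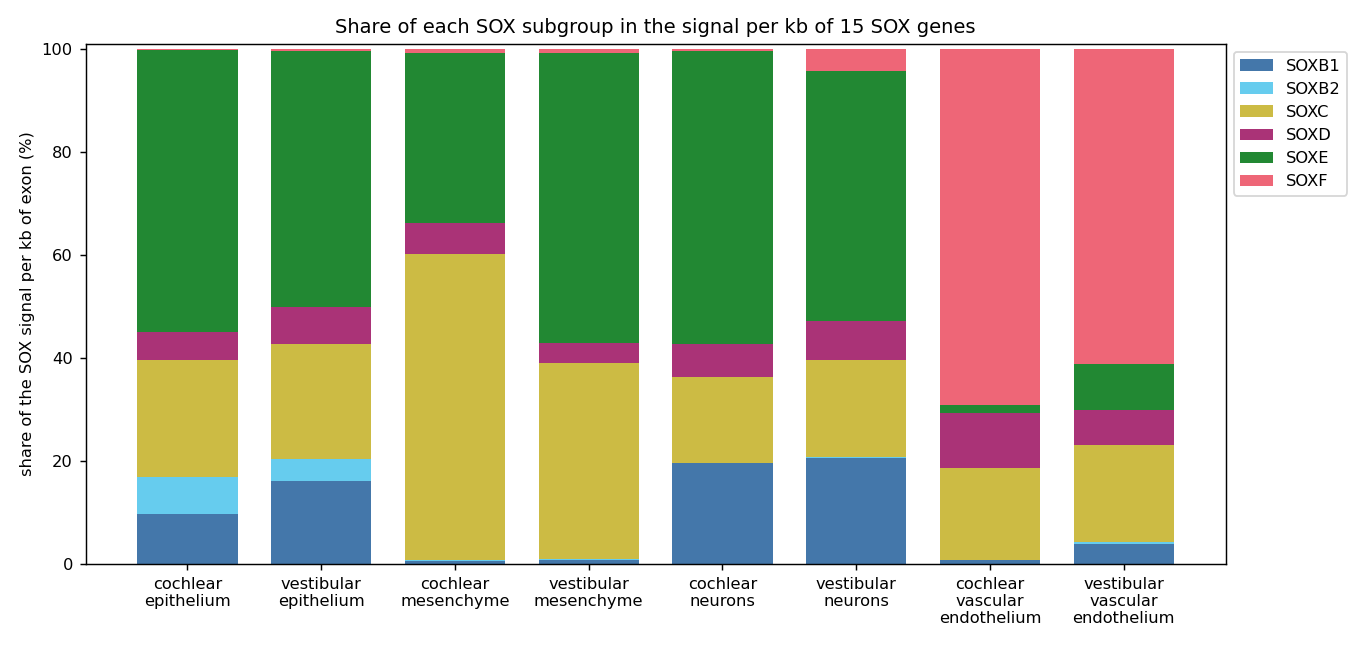
Share (%) of each SOX subgroup in the signal per kb of exon summed over 15 SOX genes, with 1 stacked bar for each library and cell types side by side. SOXF fills 69.1% and 61.2% of the bars of vascular endothelium and SOXC 59.4% of that of cochlear mesenchyme.

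Of the SOX genes outside the 10, Sox21 of the SOXB2 group passed the test in epithelium. It had 2015 in cochlear and 1322 in vestibular epithelium and at most 93.6 elsewhere, and its log2 difference of 5.68 ± 0.63 had a limma adjusted p of 0.0139, which was 0.0530 without vestibular neurons and 0.0249 without vestibular vascular endothelium. Sox8 was lower in vascular endothelium by the test, at -2.64 ± 0.47 with 0.0379, lost at 0.141 without vestibular vascular endothelium, and its difference of 2.86 ± 0.47 in mesenchyme had 0.0543. Sox3, Sox12 and Sox13 had no call against the mean of the other 3 cell types. Sox3 was at 20 in 6 libraries, with 184 in cochlear and 35.9 in vestibular neurons. Sox12 lay between 548 and 1948 and Sox13 between 353 and 3392, the highest being cochlear vascular endothelium.

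The pattern of each member over the 8 libraries was compared with that of all genes whose highest value was at least 200, by the Pearson correlation of log2(signal + 1), as a description. Sox7 and Sox17 correlated at 0.998 with each other, and each was the second most like the other among 12137 genes, after Ecscr for Sox7 and Prnd for Sox17. Icam2 was most like Sox18 at 0.998, but took only place 738 by Spearman correlation, where Ecscr took place 24 and Prnd place 10. Mal, a protein of myelin membranes, was most like Sox2 at 0.983, followed by Atp10b and Itgb4. Zdhhc2 was most like Sox10 at 0.990, followed by Ttyh1 and Cryab. Sox2 and Sox10 correlated at 0.940.

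Among the others, Tmem132c at 0.994 and Eya1, a transcriptional coactivator of otic development, at 0.991 were most like Sox9. Wnt4 at 0.981 was most like Sox6 and took place 71 by Spearman correlation, where Tmem132c took place 11, and Celf2 at 0.977, Zfp706 and Tdrkh were most like Sox5. The likeness was weaker for 2 members, with Sesn2 at 0.933 for Sox4 and Polr2m at 0.948 for Sox11, which took places 45 and 14 by Spearman correlation. The 8 points share the 4 sorts and the common distribution of the signal.

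Genes that work beside the SOX factors were counted in lists. Of 16 prosensory and supporting cell genes, 3 were higher in epithelium by the limma test, where 7.27% of all genes were, with a median log2 difference of 2.19 beside -0.07 over all genes. They were Isl1 at 4.85 ± 1.04, Gata3 at 4.35 ± 0.90 and the Notch target Hes5 at 2.26 ± 0.12, with limma adjusted p of 0.0484, 0.0454 and 0.00544. Without vestibular neurons only Hes5 kept its call, and without vestibular vascular endothelium Hes5 and Isl1 did. Jag1, a Notch ligand, had 5250.3 in cochlear and 3372 in vestibular epithelium, and also 4146 and 2097 in neurons and 2468 and 3372 in vascular endothelium, and was not called. Of the glial genes higher in neurons, Foxd3, a neural crest factor, had 7121 in cochlear and 2326 in vestibular neurons, at a log2 difference of 6.33 ± 0.70 with a limma adjusted p of 0.0320, which was 0.0869 without vestibular neurons and 0.0627 without vestibular vascular endothelium. Erbb3, the neuregulin receptor of Schwann cells, had 25882 and 17510.0 in neurons and also 7182 and 5179 in epithelium, a split like that of Sox10.

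Of 9 melanocyte genes, 1 was higher in neurons, where 2.3% of all genes were. In mesenchyme 1 was higher, beside 1.82% of all genes, and in vascular endothelium 1, beside 5.96%. In epithelium 3 were lower, where 6.68% were. The 1 in neurons was Ednrb, the endothelin receptor of neural crest cells, with 109100.4 in the cochlea and 98907 in the vestibular organs, a call lost without vestibular neurons (limma adjusted p of 0.117). The pigment gene Dct was highest in mesenchyme, with 10562 and 5603, and had 77.6 and 672 in vascular endothelium. Of 13 cartilage genes, 5 were lower in vascular endothelium, where 5.14% of all genes were lower. In epithelium 3 were higher and 1 lower, where 7.27% and 6.68% of all genes were, and 1 was higher in mesenchyme, where 1.82% were. Col11a1, a collagen of cartilage and the otic epithelium, had 49104 in cochlear and 33586 in vestibular epithelium, 16808 and 20314 in mesenchyme, and 315 and 2344 in vascular endothelium. The endothelial genes beside the SOXF members had a median log2 difference of 5.99 in vascular endothelium, beside -0.03 over all genes. Cdh5 had 67384.5 in cochlear and 28959.6 in vestibular vascular endothelium, at 7.80 ± 0.95 with a limma adjusted p of 0.0208, a call that held without either of the vestibular libraries that stood apart.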

How the data were processed

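The members were taken by symbol from the deposited table, and they and the marker lists were chosen with earlier results of these data known. The authors sorted cells, sequenced mRNA and deposited a signal per gene; TopHat 1.0.0 and GRCm38 appear in the submitters' processing notes, and the sources used here do not say how reads were counted, normalized or divided by length. The deposited signal has the same sorted values in all 8 libraries and a lowest value of 20. Library totals are thereby removed, so that depth and counting precision are unknown. A column of means and a column of the authors' own clusters were not used.

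Identifiers of 15030 of 15275 genes were found in GENCODE vM21, which gave coordinates and exon lengths, and 20 symbols turned into dates were restored. A model of cell type and organ was fitted to log2(signal + 1) of all genes with limma 3.58.1 in R 4.3.3, with a variance trend and Benjamini-Hochberg adjustment at 0.05. It estimates 5 coefficients from 8 libraries and leaves 3 residual degrees of freedom. The fit was tested on simulated data. The 208 genes at 20 in every library have no variance and entered it. A fold change on this scale understates that of genes near 20. The design had been written for counts or per-million values, and the signal was handled as the latter.

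Named genes are the 10 members, the other SOX genes, the 3 genes most like each member, and from each list the 4 largest differences that passed the test; list genes named beyond these, such as Erbb3, Jag1, Tubb3, Dct, Col3a1, Lum and Rgs5, were picked after their values were seen. Some genes that this rule takes are not reported here. Alternatives were a pseudocount of 20, a minimum of 100 on each gene's highest value, no variance trend, no organ term, median-of-ratios scaling, each library left out, exon length and Spearman correlation. Descriptions were made with pandas 2.3.3 (Python 3.11.15, numpy 2.4.6).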

Additional observations from a re-analysis of the deposited data

Results flagged for a closer look

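In neurons against the mean of the other 3 cell types, the SOXF genes took opposite directions in the organs. Sox7 was at -1.889 on the log2 scale within the cochlear and at 1.732 within the vestibular libraries, Sox17 at -2.466 and 1.536, and Sox18 at -2.163 and 1.027. Each value sets 1 library against 3, so this contrast of the organs was not tested. Beside it, 19 of 20 endothelial genes were higher in vestibular than in cochlear neurons, such as Pecam1 with a signal of 1039 against 165. So were all 10 epithelial genes, and 6642 of all 15275 genes. The part of other cell types in the difference was not tested.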

How the results depend on the processing

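Counts over all genes depended on the settings. With only genes of a highest value of at least 100, the limma calls went from 509 to 1098 for mesenchyme and from 514 to 861 for neurons against the other 3 cell types, from 402 to 886 for mesenchyme against neurons, from 1286 to 2003 for mesenchyme and from 803 to 1461 for neurons against vascular endothelium. Median-of-ratios scaling gave 837 for mesenchyme and 664 for mesenchyme against neurons, and the model without an organ term gave 778 for neurons. With 1 library left out, the count lay between 255 and 1997 for epithelium, 0 and 626 for mesenchyme, 0 and 638 for neurons and 0 and 909 for vascular endothelium. It lay between 39 and 673 for epithelium against mesenchyme, 0 and 1003 against neurons and 494 and 1680 against vascular endothelium. It was 0 to 79 for mesenchyme against neurons, 42 to 823 for mesenchyme and 0 to 744 for neurons against vascular endothelium, and 0 in every fit for the organs.

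Over 84 comparisons of the members, no direction turned under the alternatives that kept all libraries. The filter added calls in 18, the scaling in 12, the model without an organ term in 9 and the pseudocount of 20 in 4, and dropping the variance trend removed 2. Leaving out 1 library turned the direction in 32 of 672 fits, all of differences that were not called. The log2 differences of these comparisons ranged as follows. For Sox4 they were -0.33 to 0.27 in mesenchyme and -0.094 to 0.13 in neurons against the other 3 cell types, -0.029 to 0.64 for epithelium against neurons, -0.34 to 0.26 for mesenchyme against neurons and -0.015 to 0.58 for mesenchyme against vascular endothelium. For Sox5 they were -0.016 to 2.08 in epithelium, -0.65 to 0.046 in mesenchyme, -0.046 to 2.05 for epithelium against mesenchyme and -1.72 to 0.38 against neurons. For Sox6 they were -0.36 to 1.45 in neurons and -1.81 to 0.43 for mesenchyme against vascular endothelium. For Sox11 they were -0.27 to 0.33 in vascular endothelium, -1.19 to 0.32 for epithelium against mesenchyme and -0.059 to 0.55 against vascular endothelium. In neurons they were -1.89 to 1.73 for Sox7, -2.47 to 1.54 for Sox17 and -2.16 to 1.03 for Sox18. They were -1.62 to 0.80 for Sox10 in mesenchyme and -1.27 to 0.83 for Sox9 in neurons, both against vascular endothelium. The cause of these changes was not tested. Per kb of exon, Sox7 took place 2 in cochlear vascular endothelium and Sox17 place 3 in the vestibular one, where they lead by signal. By Spearman in place of Pearson correlation, the gene most like a member stayed first for Sox5 and Sox10 and otherwise took place 3 (Sox2), 45 (Sox4), 71 (Sox6), 24 (Sox7), 11 (Sox9), 14 (Sox11), 10 (Sox17) and 738 (Sox18).

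No paired analysis was possible because every group holds 1 library, so that the shared replicate number pairs nothing beyond the organ, which is a term of the model. With 1 library of each cell type and organ, a shared spread is assumed for all groups, also where a library is left out and a cell type keeps 1. Depth is unknown, and values at 20 hide differences below that limit.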
